A study of Mus musculus with 3 samples.

Results

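Cnmd-rich cells of the postnatal day 7 (P7) mouse cochlea are cells without epithelial, endothelial, glial or immune marker transcripts that carry many transcripts of Cnmd, the gene of chondromodulin. Whole cochleae of wild-type C57BL/6J mice were dissociated with papain and thermolysin, sorted to remove debris and profiled with the 10x Genomics 3′ v3 kit, in 1 library at P7 and 2 libraries at embryonic day 15 (E15). Transcripts were counted as unique molecular identifiers (UMIs). A cell was kept if it had at least 500 genes, at most 20% mitochondrial UMIs and no UMI of Epcam, Cdh5, Sox10 or Ptprc. It was counted as Cnmd-rich if it also had at least 10 Cnmd UMIs and less than 1% of its UMIs from the bone genes Bglap, Bglap2 and Ibsp. In the P7 library 8141 barcodes left 7262 cells after the limits on genes and mitochondrial UMIs and 4591 after the marker filter. Of these, 431 were Cnmd-rich, a share of 9.39% (exact 95% interval 8.56% to 10.3%), out of 15272 barcodes in all 3 libraries. The bone limit removed 2 further cells. The comparison cells were the 3712 other filtered P7 cells with at least 3 UMIs of Col1a2, a type I collagen gene of fibroblasts and bone cells. No tissue beyond the cochlea, and no dissected region of it, is given for any library, and no source states whether several animals were pooled.

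Cartilage is an avascular tissue whose cells sit in a matrix of type II collagen fibrils, with types IX and XI on and within them, and of aggrecan held on hyaluronan by link protein. Chondromodulin is a membrane protein of cartilage cells from which a secreted part is cut that keeps blood vessels out. Sox9 is the transcription factor that switches on the genes of type II collagen and aggrecan. The cochlea lies in a cartilage capsule that turns into bone, and its lateral wall holds fibrocytes, connective tissue cells known for otospiralin (Otos), carbonic anhydrases and the connexins that join cells for potassium recycling.

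The name cartilage-like held for the collagens and Sox9, in part for the matrilins Matn1 and Matn4, and not for Acan, Hapln1, Snorc and Comp. All 431 Cnmd-rich cells held UMIs of Col2a1, Col9a1 and Col9a3, and 96.5% held Sox9. Matn4 (matrilin 4) was found in 306 of the 431 cells, Acan (aggrecan) in 102, Matn1 (matrilin 1) in 62, Snorc in 26, Comp in 15 and Hapln1 (link protein) in 3, and 261 cells (60.6%) had no UMI of any of Acan, Hapln1, Matn1, Matn3, Snorc and Comp, against 71.7% of comparison cells. Genes of cochlear fibrocytes were far higher: Otos reached 47988 counts per 1000000 UMIs (CPM) in the summed Cnmd-rich cells, against 2812 CPM in the comparison cells. The cells are therefore called Cnmd-rich here, not chondrocytes.

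The libraries held 93829443 UMIs at P7 and 46530036 and 44304364 at E15. Each level below is the CPM of UMIs summed over cells, taken over the 27734 gene identifiers that all files list, and its interval (exact Poisson, 95%) covers counting error only. The Cnmd-rich cells were deeper, with a median of 16748 UMIs and 3958 genes per cell, against 11269 UMIs and 3427 genes in comparison cells; a rule on a number of Cnmd UMIs favours deep cells. Median mitochondrial shares were 4.15% and 4.12%. Barcodes shared between libraries numbered 6, 6 and 3 for the 3 pairs. The comparison cells include bone cells, with 4037 CPM of Ibsp, and 365 of the Cnmd-rich cells themselves had at least 3 Col1a2 UMIs. With 1 library at P7 and cells chosen by their own counts, the contrast at P7 is a description without a test.

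In the Cnmd-rich cells 5 collagen genes of cartilage were found in every cell. Col2a1, the type II collagen chain, had 14 UMIs in the lowest cell, a median of 211 and 684 in the highest, and summed to 13063 CPM, against 5158 CPM in comparison cells, 2.53-fold higher. Col9a1, which makes a chain of type IX collagen, had at least 26 UMIs in each cell and 9770 CPM, against 3369 CPM. Col9a3, another type IX chain, had 21 to 388 UMIs per cell and 8429 CPM, against 1988 CPM, a fold of 4.24. Col9a2 and the type XI chain gene Col11a2 were 2.61-fold and 2.32-fold higher. Col11a1, at 1679 CPM against 1206 CPM, and Col27a1, at 369 CPM against 282 CPM, stayed under 2-fold.

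Thus 5 of the 7 collagens listed for cartilage were at least 2-fold higher and none was lower. Over all 8812 genes with at least 10 CPM in either set, 429 were at least 2-fold higher (4.87%) and 1008 at least 2-fold lower (11.4%), and the median log2 difference was -0.28. The rule chose the cells on this same contrast, so these shares are a description. The comparison cells were not free of these collagens: 94.7% had a Col2a1 UMI, and 91.5% after thinning every cell to 5000 UMIs. Immune cells, which should lack Col2a1, held some as well. Of 54 P7 cells with at least 3 Ptprc UMIs (median 8530 UMIs), 38.3% of those thinned had a Col2a1 UMI, at 252 CPM unthinned. In 2 of the 54 cells there were at least 10 Col2a1 UMIs. The parts of free RNA and of doublets in these values were not tested.

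**Figure D1:**
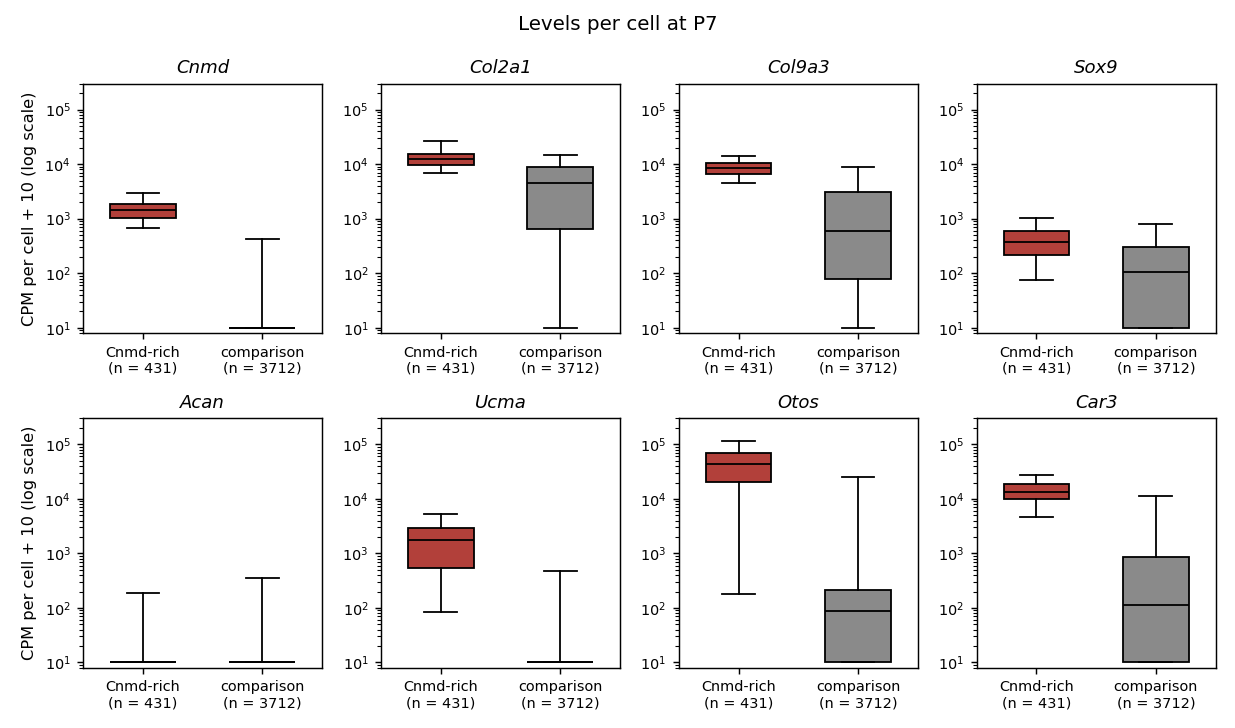
Levels per cell at P7 in the 431 Cnmd-rich cells (left, red) and the 3712 comparison cells (right, grey), as CPM plus 10 on a log axis; boxes span the quartiles with the median as a line, and whiskers run from the 5th to the 95th percentile. Col2a1 and Col9a3 sat high and narrow in Cnmd-rich cells, Otos and Car3 stood well above the comparison cells, and the median of Acan was 0 in both sets; the gap in Cnmd is set by the rule.

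The rest of the cartilage matrix split. Of 24 measured genes, 11 were at least 2-fold higher, 8 at least 2-fold lower and 5 under 2-fold, with a median log2 difference of 0.34. Ucma, a secreted cartilage matrix protein rich in gamma-carboxyglutamate, was at 2039 CPM in Cnmd-rich cells and at 91.9 CPM in comparison cells, and 415 of the 431 cells held it. Mia, a small secreted protein of cartilage, was 23.5-fold higher at 1106 CPM against 47.1 CPM. Cytl1, a secreted factor of chondrocytes, stood at 281 CPM against 15.2 CPM, in 58.5% of Cnmd-rich cells. Scrg1, a gene of chondrocytes, was 25.1-fold higher at 55.1 CPM against 2.19 CPM, Chadl, a leucine-rich repeat protein of cartilage, 8.24-fold, and Vit, which encodes the matrix protein vitrin, 16.0-fold.

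Matn1 was almost absent from the comparison cells, with 10 UMIs in all of them against 180 in the Cnmd-rich cells, 24.0 CPM and 0.228 CPM. Its UMIs were in few cells, and 18 of the 431 had at least 3. Fmod, Thbs1, Cilp2 and Ogn were 4.73-fold, 3.82-fold, 2.10-fold and 2.82-fold higher.

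The lower genes were mostly small proteoglycans and proteins of looser matrix. Decorin (Dcn) was 2.29-fold lower at 1154 CPM against 2643 CPM, and lumican (Lum) 4.12-fold lower at 132 CPM against 542 CPM. Versican (Vcan), asporin (Aspn) and Prelp were 10.5-fold, 20.2-fold and 15.4-fold lower. Among cartilage genes proper, Chad (chondroadherin) was at 15.5 CPM against 117 CPM and was found in 7.89% of Cnmd-rich cells against 23.6% of comparison cells. Snorc, a proteoglycan of cartilage, was at 6.27 CPM against 30.2 CPM.

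Acan was no higher in the Cnmd-rich cells. It was at 29.9 CPM (26.1 to 34.1) in Cnmd-rich cells against 44.3 CPM (42.4 to 46.4) in comparison cells, and the highest Cnmd-rich cell had 15 UMIs. After the same thinning, which left out 5 Cnmd-rich and 460 comparison cells, 10.6% of Cnmd-rich and 13.4% of comparison cells had an Acan UMI; unthinned shares were 23.7% and 18.5%. No cell with 3 or more Ptprc UMIs had one. Matn4 was at 160 CPM against 118 CPM, a fold of 1.35, yet was found in 71.0% of Cnmd-rich cells against 29.7% of comparison cells, and in 44.6% against 23.1% after thinning. Of the cells with 3 or more Ptprc UMIs, 3.70% had a Matn4 UMI.

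The chondrocyte factors Sox9 and Sox8 were higher and factors of bone lower. Sox9 was 2.28-fold higher at 424 CPM against 186 CPM, and Sox8, its relative, 2.98-fold. Sox5, a partner of Sox9, was at 32.6 CPM against 16.3 CPM, and Sox6 was below the limit of 10 CPM in both sets. Of 12 measured chondrocyte transcription factors, Runx2, Mef2c and Arid5a were lower. Runx2, which drives bone formation and late chondrocytes, was 16.5-fold lower at 6.00 CPM against 99.0 CPM.

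Hypertrophy is the swelling of growth plate chondrocytes before bone replaces them. Of 9 measured genes of that state, 8 were lower and none higher (median log2 difference -4.04). Among the lower genes, Alpl, Spp1, Dlx5, Sp7 and Runx2 are also on the osteoblast list. The comparison set held bone cells of a kind that the rule kept out of the Cnmd-rich cells. Against comparison cells with no Cnmd UMI and bone genes below 1%, the log2 difference of Alpl was -3.72 in place of -4.52. The part of bone cells in the other differences was not tested. Alpl (alkaline phosphatase) was at 6.27 CPM against 144 CPM and Pth1r, the parathyroid hormone receptor, at 29.2 CPM against 251 CPM. Col10a1, the type X collagen that defines the state, had 1 UMI in the 431 cells, and Mmp13 had none.

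The osteoblast list was lower throughout, in 12 of 12 measured genes. Ifitm5, a membrane protein of osteoblasts, was 205-fold lower at 1.33 CPM against 274 CPM, and Sp7, an osteoblast factor, 20.7-fold. The rule itself kept out cells rich in bone genes and the comparison set kept them in. In another comparison set, cells with at least 1% of UMIs from the bone genes or with any Cnmd UMI were left out. Cells with a smaller share of bone genes stayed in. The log2 difference of Ifitm5 was then -5.04 in place of -7.68 and that of Sgms2 -2.08 in place of -4.43. All 40 genes named by size of fold were still at least 2-fold apart in the same direction, but the folds of 4 lower and 20 higher genes moved by more than 1.5 times. Slc13a5 moved most, to a log2 difference of 6.71 from 3.47, and Otos was at 5.54 in place of 4.09.

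Cochlear fibrocyte genes split sharply in the Cnmd-rich cells, with 8 of 19 measured genes higher and 8 lower. Otos had a median of 702 UMIs per Cnmd-rich cell and 4370 in the highest, was at 0 in 8 cells, and was 17.1-fold higher in sum. In cells with 3 or more Ptprc UMIs 53.7% had an Otos UMI, but at 73.4 CPM. Car3 (carbonic anhydrase 3) was found in all 431 cells, at 14512 CPM against 1479 CPM. Otor (otoraplin), a secreted protein related to Mia, was at 24852 CPM against 6477 CPM. Ecrg4, a gene for a secreted peptide precursor, was 22.2-fold higher at 11561 CPM against 520 CPM.

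Genes of the potassium route in the lateral wall were also higher. Gjb2 (connexin 26) was at 719 CPM against 98.0 CPM and Gjb6 (connexin 30) at 183 CPM against 60.6 CPM. Slc12a2, a sodium, potassium and chloride cotransporter, was at 257 CPM against 78.9 CPM.

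Other known fibrocyte genes were lower. Coch (cochlin) was 2.76-fold lower at 339 CPM against 937 CPM. Emilin2, a matrix glycoprotein, was 40.9-fold lower at 31.4 CPM against 1281 CPM, and 32.8% of its 235 UMIs in Cnmd-rich cells came from 1 cell. Tgfbi, Rarres1, Cav1, Kcnk2 and Cldn11 were lower by 22.4-fold, 8.52-fold, 15.2-fold, 17.9-fold and 2.93-fold. Ptgds, a prostaglandin synthase, was 3.39-fold higher in sum, but 5030 of its 7254 UMIs lay in 1 cell and the fold was 1.05 without that cell.

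Among the 25 genes with the largest folds, several are better known from glia or from secretion than from cartilage. S100b, a calcium-binding protein of glia and chondrocytes, was 14.5-fold higher at 4839 CPM against 333 CPM. Fabp7, a fatty acid binding protein of radial glia, was 10.8-fold higher, Gpr37, a receptor of oligodendrocytes, 10.5-fold and Bcan, the brain proteoglycan brevican, 7.56-fold. Cells rich in Otos with under 10 Cnmd UMIs held at least as much of these 3: Fabp7 was at 326 CPM in Cnmd-rich cells and 359 CPM in those cells, Gpr37 at 143 CPM and 150 CPM, and Bcan at 260 CPM and 441 CPM. Schwann cell markers did not follow: 5 of 5 measured stayed under 2-fold. The largest fold was that of Mpzl2, an adhesion protein whose loss causes deafness in humans, at 147 CPM (139 to 156) against 5.39 CPM (4.72 to 6.12).

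Further genes in that group have roles in transport and metabolism. Slc13a5, a citrate carrier, was 11.1-fold higher, G0s2, an inhibitor of fat breakdown, 13.1-fold, and Pla2g7, the platelet-activating factor hydrolase, 8.60-fold. Srgn (serglycin) was 9.44-fold higher, though cells with Ptprc UMIs held more of it, 600 CPM against 490 CPM in Cnmd-rich cells. Fbxo2, which recognises glycoproteins for degradation, was 18.7-fold higher at 2480 CPM, and Fzd9, a Wnt receptor, 7.51-fold. No single cell held more than 2.85% of the UMIs that the Cnmd-rich cells had of any of these 25 genes.

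**Figure D2:**
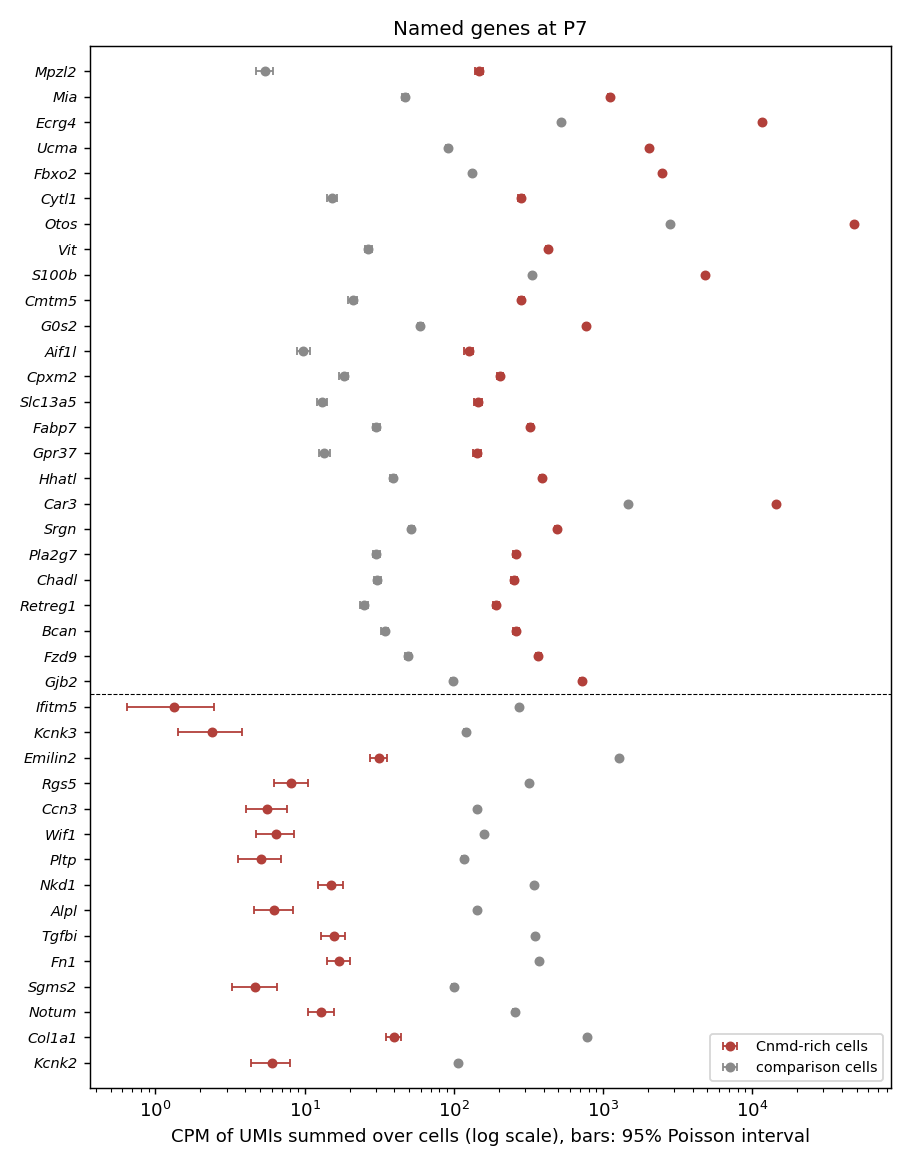
Summed levels at P7 (CPM, log axis) of the 25 genes with the largest fold higher (above the dashed line) and the 15 with the largest fold lower in the 431 Cnmd-rich cells (red), with the 3712 comparison cells in grey and 95% Poisson intervals as bars. Levels in Cnmd-rich cells ran up to 47988 CPM for Otos and down to 1.33 CPM for Ifitm5.

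The 15 genes with the largest folds lower included brakes on Wnt signalling. Wif1, a secreted Wnt inhibitor, had 48 UMIs among the 431 Cnmd-rich cells and was far below the 160 CPM of comparison cells. Nkd1 and Notum, which damp the pathway inside and outside the cell, were 23.1-fold and 19.7-fold lower. Fibronectin (Fn1) was 21.8-fold lower at 17.0 CPM against 370 CPM, and Col1a1, the type I collagen chain, 19.6-fold at 39.6 CPM against 775 CPM. Rgs5, a pericyte gene, was 39.4-fold lower, and 68.9% of its UMIs in Cnmd-rich cells came from 1 cell.

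Connective tissue genes were low more broadly. Of 19 measured fibroblast genes 13 were lower, and Sparc, a collagen-binding protein, was the 1 that was higher (2.73-fold). Of 8 pericyte genes 7 were lower. Of 17 otic mesenchyme transcription factors 10 were lower and none higher, whereas Pou3f4 and Tbx18, both needed in the mesenchyme around the cochlea, were at 471 CPM and 340 CPM, against 371 CPM and 209 CPM. Growth signals followed: 14 of 26 growth plate signals were lower, among them Gdf10 and Nppc, while Bmp5 was 2.75-fold higher at 120 CPM and Ccn1 2.19-fold.

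Supply routes for matrix differed about as little as measured genes in general. Over all 8812 measured genes, 1437 were at least 2-fold apart in either direction. Of 30 measured genes for collagen modification and secretion 27 stayed under 2-fold, with the lysyl hydroxylase gene Plod1 higher at 3.17-fold, and of 20 genes for glycosaminoglycan synthesis 19 stayed under 2-fold. Slc2a1, a glucose transporter, was 5.51-fold higher and Pdk1 2.26-fold, 2 of 4 higher among 18 measured genes of low oxygen and glycolysis. Genes of insulin-like growth factors and imprinted growth were more often lower, in 8 of 17 measured, than higher, in 2 (median log2 difference -0.96). Igfbp2 (3.29-fold) and Cdkn1c were higher, and Igf1, Igf2, Igfbp3, Igfbp7 and Igfbp5 (8.28-fold) were among the lower.

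Serpinf1 (pigment epithelium-derived factor) and Thbs1 (thrombospondin 1), which like chondromodulin restrain vessel growth, were 3.84-fold and 3.82-fold higher. They were the 2 higher genes among 9 measured vessel inhibitors, of which 3 were lower. Cnmd's closest relative, Tnmd (tenomodulin), was at 47.5 CPM against 36.1 CPM and was found in 110 of the 431 cells.

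**Figure D3:**
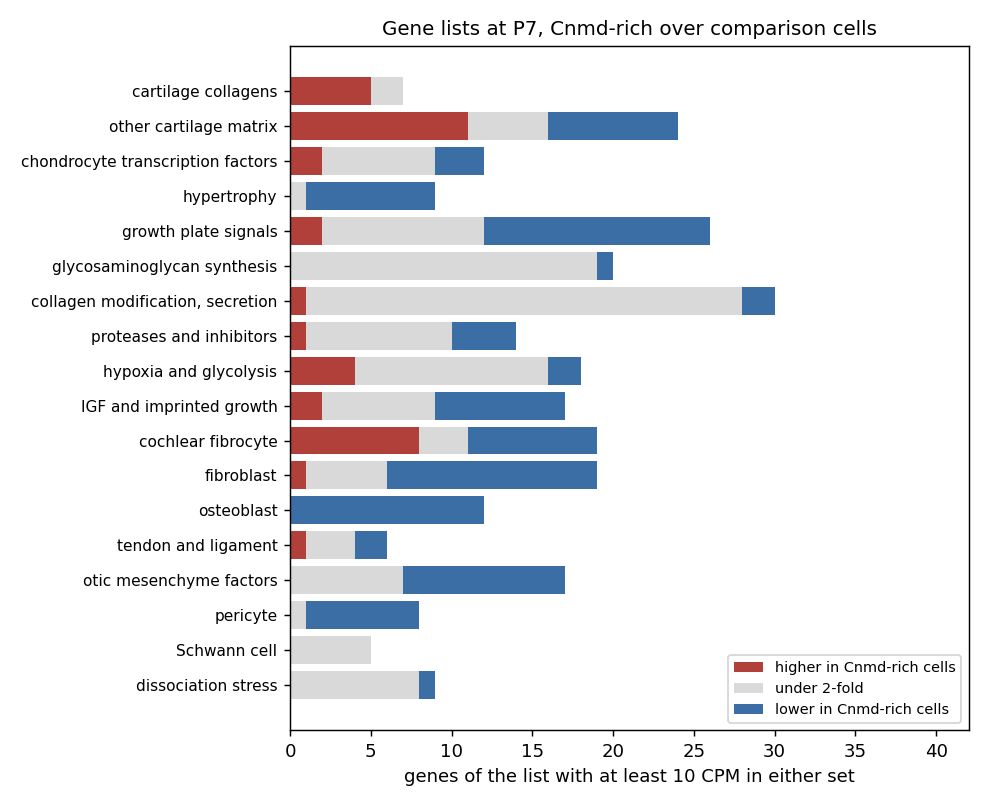
For 18 gene lists, the number of genes with at least 10 CPM in either set that were at least 2-fold higher (red), under 2-fold (grey) or at least 2-fold lower (blue) in Cnmd-rich cells relative to comparison cells at P7. Cartilage collagens held no lower gene, osteoblast genes were all lower, and cochlear fibrocyte genes split evenly.

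Markers of other cell types were lower in the Cnmd-rich cells for some lists and not for others. The 8 macrophage genes summed to 20.4 CPM against 40.1 CPM. The 6 muscle genes summed to 4.54 CPM against 56.8 CPM, and the 6 neuronal genes to 8.67 CPM against 55.8 CPM. Endothelial genes summed to 144 CPM against 484 CPM, but the genes did not share that direction. Of the 3 measured, Emcn was lower, Plvap higher and Egfl7 under 2-fold, with a median log2 difference of 0.99. Emcn was at 85.4 CPM in the Cnmd-rich cells and was found in 225 of the 431. Other lists were not lower in sum. Melanocyte genes summed to 37.4 CPM against 20.9 CPM, Schwann cell genes to 515 CPM against 503 CPM and osteoclast genes to 145.5 CPM against 132.3 CPM. Epithelial genes summed to 61.1 CPM against 27.4 CPM, of which Cdh1 (E-cadherin) gave 45.0 CPM against 14.4 CPM, while 2 of the 8 were at 0. Haemoglobin transcripts came from 1 cell, which held 96.0% of the Hbb-bs UMIs; the fold of Hbb-bs was 1.26 with that cell and 0.0505 without it. Of 9 measured genes induced by dissociation 8 were under 2-fold and Atf3 was lower. The division genes Mki67 and Top2a had 3 and 7 UMIs among all 431 cells. The part of other cell types in the levels was not tested.

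Cnmd and Otos marked overlapping sets of cells. Of 728 filtered P7 cells with at least 1% of their UMIs from Otos, 361 were Cnmd-rich, which is 49.6% of the Otos-rich cells and 83.8% of the Cnmd-rich cells. The Cnmd-rich share climbed over the Otos bins, with 0.943% of cells below 0.05% Otos, 19.1% at 0.2% to 1% and 61.1% at 6% or more. Depth differed too: median UMIs per cell were 3029 in the bin from 0.05% to 0.2% and 13107 in the highest bin.

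**Figure D4:**
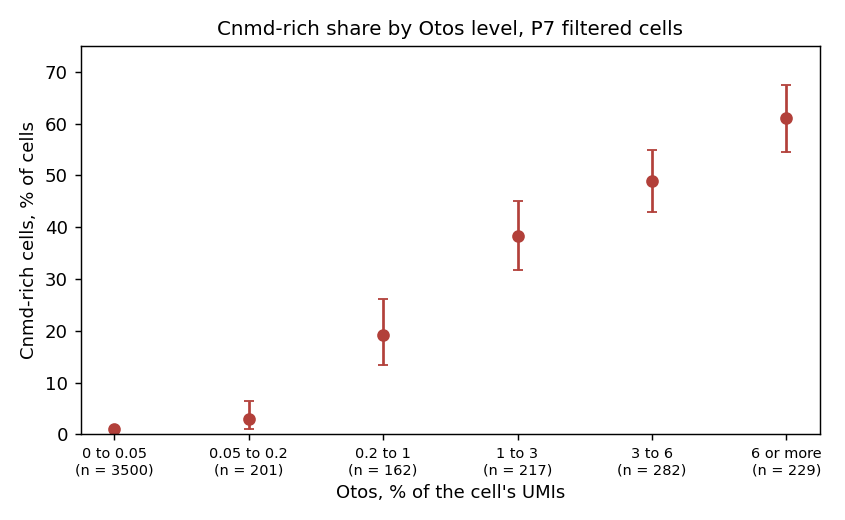
Share of filtered P7 cells that were Cnmd-rich (percent, exact 95% binomial intervals) in 6 bins of the Otos share of a cell's UMIs, with the number of cells in each bin. The share was below 3% in both lowest bins and 61.1% in the highest.

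Otos-rich cells without 10 Cnmd UMIs shared much of this profile. There were 366 of them, shallower at a median of 8808 UMIs, with 348 CPM of Cnmd against 1480 CPM in the Cnmd-rich cells. Col2a1 was at 13063 CPM in Cnmd-rich and 12079 CPM in these cells, Col9a3 at 8429 CPM and 7904 CPM, Col9a1 at 9770 CPM and 12183 CPM, and Col9a2 at 3339 CPM and 5160 CPM. Sox9 was at 424 CPM and 396 CPM. The Cnmd-rich cells had more Mia (5.06-fold), Col8a1 (5.03-fold), Clu (4.65-fold), Ucma (4.58-fold), Ecrg4 (3.79-fold) and Ogn (3.40-fold). They had less Acan, at 29.9 CPM against 175 CPM, less Coch, at 339 CPM against 1346 CPM, and less Rarres1, at 68.2 CPM against 498 CPM. Cthrc1, a secreted protein with a collagen triple helix repeat, was at 652 CPM against 2419 CPM. Aggrecan was thus higher in the Otos-rich cells that lacked 10 Cnmd UMIs; with 1 library this carries no test.

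Cells just inside and just outside the limit of 10 Cnmd UMIs were close in collagens and differed in other genes. The 71 Cnmd-rich cells with 10 to 12 Cnmd UMIs had 42453 CPM of Otos, 1226 CPM of Ucma, 532 CPM of Mia and 67.4 CPM of Acan. The 98 filtered cells with 7 to 9 had 30860 CPM, 625 CPM, 346 CPM and 108 CPM of these genes. Col2a1 was at 11973 CPM inside and 10821 CPM outside, Cytl1 at 258 CPM and 71.6 CPM, Col1a1 at 63.0 CPM and 544 CPM, and Spp1 at 53.0 CPM and 873 CPM. Median UMIs were 12116 and 11564. Among the Cnmd-rich cells, Ucma was at 1241 CPM in the 190 cells with 10 to 19 Cnmd UMIs, 2372 CPM in the 207 with 20 to 49 and 2871 CPM in the 34 with 50 or more. Slc12a2 ran the other way, at 382, 211 and 98.2 CPM.

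Cnmd was not limited to these cells. At P7, 296 further cells had at least 10 Cnmd UMIs but carried a UMI of Epcam (252 cells), Sox10 (226), Cdh5 (33) or Ptprc (6). The 252 with an Epcam UMI had 2595 CPM of Cnmd and 3542 CPM of Mia, above the 1480 CPM and 1106 CPM of the Cnmd-rich cells. Oc90, a gene of otic epithelium, was at 2.54 CPM in Cnmd-rich cells and 2678 CPM in the Epcam-carrying cells. Otos was at 47988 CPM in Cnmd-rich cells and 7568 CPM in the Epcam-carrying cells.

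The Cnmd-rich cells themselves varied along Col8a1, which encodes a short-chain collagen of vessel and corneal matrix. Of the 431, 208 had no Col8a1 UMI, 74 had some below 0.02% of their UMIs and 149 had 0.02% or more, with median depths of 15494, 20377 and 18222 UMIs. Trf (transferrin) was at 6809 CPM with none, 3044 CPM with some and 1537 CPM with most. Fabp7 was at 629, 167 and 48.0 CPM, Bcan at 475, 167 and 52.1 CPM, and Slc12a2 at 453, 179 and 63.9 CPM. Slc1a3, a glutamate transporter, was 4.30-fold higher in the cells with none than in those with 0.02% or more.

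Other genes increased along the same order. Ucma was at 1209, 2158 and 2978 CPM, Mia at 591, 1201 and 1675 CPM, and Matn1 at 7.02, 26.5 and 43.2 CPM. Tnmd was at 11.9, 35.1 and 97.5 CPM and Ogn, the proteoglycan osteoglycin, at 142, 206 and 588 CPM. Mgp, an inhibitor of calcification, was 8.68-fold and Igfbp5 6.83-fold higher with 0.02% Col8a1 or more than with none. Collagen II hardly moved, at 12397, 13038 and 13882 CPM. The split was chosen after these values were seen.

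**Figure D5:**
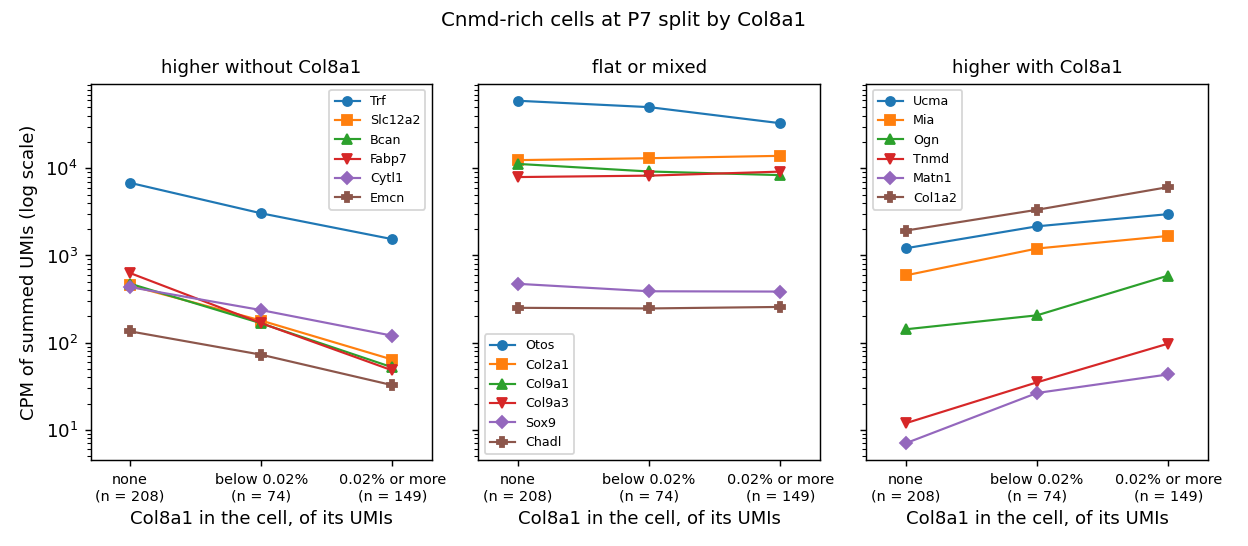
Summed CPM (log axis) of 18 genes in Cnmd-rich cells with no Col8a1 UMI (208 cells), below 0.02% (74 cells) and 0.02% or more of their UMIs (149 cells). Fabp7 was at 629 CPM without Col8a1 and at 48.0 CPM in the cells with most, Tnmd at 11.9 CPM and 97.5 CPM, and Col2a1 and Chadl stayed nearly level.

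A small group of Cnmd-rich cells had little Otos. In 36 cells Otos was below 0.1% of UMIs, in 34 between 0.1% and 1%, and in 361 at 1% or more. All 36 of the lowest group had at least 3 Col1a2 UMIs. They kept Car3, at 14240 CPM against 14460 CPM in the 361 cells, and Col2a1, at 11511 CPM against 13201 CPM. Col1a2 was at 9876 CPM against 2866 CPM, Col8a1 at 1263 CPM against 193 CPM and Tnmd at 194 CPM against 33.4 CPM. Cytl1 was at 3.38 CPM against 313 CPM and Fabp7 at 8.45 CPM against 368 CPM. Fst (follistatin) had the largest fold, but 55.9% of all its UMIs in the Cnmd-rich cells lay in 1 cell.

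No E15 cell met the same rule, out of 2089 and 2647 filtered cells, which allows shares of up to 0.144% and 0.113% by a limit of 3 cells, and up to 0.176% and 0.139% by the exact 2-sided 95% interval. Filtered cells with any Cnmd UMI numbered 1246 at P7 (27.1%), against 20 (0.957%) and 19 (0.718%) at E15, and the highest counts were 92 UMIs at P7 and 6 and 5 at E15. With no Cnmd-rich cells at E15, an age test within them could not be made. The nearest test set the P7 sum of Cnmd-rich and comparison cells (4143 cells) against the same sums at E15 (1218 and 1413 cells). In such sums a change in the number of cells of a kind and a change in RNA per cell cannot be told apart, and age cannot be told apart from the single P7 library and its older software and gene annotation. The calls and errors rest on the spread between the E15 sums alone, with 1 residual degree of freedom and 1 spread shared by all genes, and assume that the P7 library varies like those sums.

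In that test edgeR called 3292 of 14687 genes higher at P7 (22.4%) and 2156 lower (14.7%). The genes that led the Cnmd-rich cells were chosen for high levels in cells that are part of the P7 sum, so their direction is not read as a result: 24 of the 25 were called higher, and so were 14 of the 15 genes lowest in Cnmd-rich cells. Otos, Vit and Hhatl had no UMI in either E15 sum. Otos, at 9412 CPM at P7, exceeded E15 by at least 117376-fold when both E15 sums together are set to 3 UMIs.

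Cnmd was at 257 CPM at P7 and at 0.961 CPM and 0.510 CPM at E15, which the rule in part sets, since cells entered the P7 sum for their Cnmd. Col2a1 was at 6313 CPM against 964 CPM and 950 CPM, higher by 2.85 ± 0.11 (SE) on the log2 scale. All 7 cartilage collagens were called higher, with a median log2 difference of 3.21. They were not alone in this: all 10 genes induced by dissociation were called higher too (median 3.06). So were all 15 osteoblast, all 8 Schwann cell and all 8 macrophage genes, while all 20 division genes were called lower. The cause of these shared differences was not tested. Acan was at 42.2 CPM against 2.53 CPM and 2.04 CPM (4.33 ± 0.14). Mia was at 202 CPM against 18.9 CPM and 21.9 CPM (3.44 ± 0.10). Sox9 was at 221 CPM against 190 CPM and 186 CPM and did not pass the fold limit, with a log2 difference of 0.36.

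Some age differences changed when the Cnmd-rich cells were left out of the P7 sum. Aif1l, Fabp7 and Chadl were named for their high levels in those cells, and Matn1 was far higher in them. Leaving the cells out therefore had to lower the P7 levels of these 4 genes, so the changes are a description. Matn1 was at 3.70 CPM at P7 against 0.607 CPM and 0.340 CPM at E15 and was called higher (3.06 ± 0.35). The Cnmd-rich cells held 180 UMIs of Matn1, nearly all of those in the P7 sum. That call thus rests on cells chosen by their own counts and is not read as a result. Without the Cnmd-rich cells the log2 difference of Matn1 was -0.95 and was not called. Aif1l was not called with them (0.45) and was called lower without them (-1.02). Fabp7 was called higher with them (1.18) and was at -0.12, not called, without them. Chadl was at 2.00 with them and, at 0.94, missed the fold limit without them. Link protein was the cartilage marker called lower: Hapln1 was at 0.780 CPM at P7 against 8.80 CPM and 6.07 CPM at E15 (-3.12 ± 0.27, edgeR adjusted p = 5.1e-31).

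Promoter windows of the marker genes are shown because Sox9 binds DNA at short elements of the type ACAAAG or ACAATG. Of Cnmd and the 25 leading genes, 23 matched the RefSeq promoter table (GRCm38.p6; 250 bases before to 50 after the start), giving 30 windows. A search on both strands found either hexamer in 4 of the 30 windows (13.3%), those of Hhatl, Retreg1, Chadl and Pla2g7, against 28.6% of all 32851 windows, 18.7% with ACAAAG and 12.6% with ACAATG. A match is a string of letters and not a binding site. The windows of Cnmd (chr14:79662134-79662433, minus strand), Otos (chr1:92648792-92649091, minus strand) and Chadl (chr15:81697238-81697537, minus strand) follow, 5′ to 3′, with the hexamer that was found in capitals.
Cnmd: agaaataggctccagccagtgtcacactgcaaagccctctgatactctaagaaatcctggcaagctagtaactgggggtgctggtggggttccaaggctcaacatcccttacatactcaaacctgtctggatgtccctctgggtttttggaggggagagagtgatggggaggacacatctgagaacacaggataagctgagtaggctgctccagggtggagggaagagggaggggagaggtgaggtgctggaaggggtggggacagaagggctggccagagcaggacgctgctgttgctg
Otos: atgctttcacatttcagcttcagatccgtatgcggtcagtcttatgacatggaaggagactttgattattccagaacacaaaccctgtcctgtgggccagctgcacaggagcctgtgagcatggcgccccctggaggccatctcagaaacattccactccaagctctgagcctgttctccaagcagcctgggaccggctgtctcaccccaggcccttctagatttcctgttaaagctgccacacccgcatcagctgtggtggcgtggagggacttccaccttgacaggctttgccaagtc
Chadl: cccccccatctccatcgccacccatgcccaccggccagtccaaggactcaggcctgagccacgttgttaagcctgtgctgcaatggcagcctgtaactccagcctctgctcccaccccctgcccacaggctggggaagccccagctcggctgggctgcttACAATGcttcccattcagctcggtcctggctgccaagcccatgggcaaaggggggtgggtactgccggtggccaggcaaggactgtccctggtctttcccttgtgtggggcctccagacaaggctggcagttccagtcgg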

How the data were processed

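The deposited matrices hold unscaled UMI counts, which the authors produced with Cell Ranger on GRCm38 (version 6.1.2 per the submitters' processing notes; 3.1.0 for P7 and 6.1.2 for E15 per the file headers). Cells were called before deposit by a rule not given in the sources used here. Members and gene lists were chosen with earlier results of these data known. Genes were matched by Ensembl identifier (the P7 file lists Cnmd as Lect1), which left out 958 genes of P7 and 4551 of E15. At P7, UMIs were summed per cell set, genes with at least 10 CPM in either set were measured and a fold of at least 2 was called. Named are the 25 largest folds higher and 15 lower among genes with at least 100 CPM, without mitochondrial, ribosomal, haemoglobin, sex-linked and unnamed genes, and members of 30 gene lists. Leading genes of the splits and compared sets were named after their values were seen. Doublets were kept; leaving out the highest Scrublet scores (scanpy 1.11.5) was an alternative. Tests planned within E15 Cnmd-rich cells could not be made, so an age test on summed counts was added after the data were seen: quasi-likelihood in edgeR 4.0.16 with TMM and filterByExpr, with calls needing a fold of 2 and a p under 0.05 after Benjamini-Hochberg adjustment, with 1 residual degree of freedom and DESeq2 1.42.0 as an alternative. No label says that the E15 libraries come from separate litters, so p-values measure only the spread between those libraries. On simulated data for that test, 41% of genes changed 2-fold and 100% of those changed 4-fold were recovered among 13630 genes. Apart from the changed genes, every simulated library was drawn from the E15 means with a dispersion of 0.01. The simulation thus held no difference of library or annotation at P7. A call also needed a fitted fold of 2, which limits the recovery of genes changed 2-fold. Some genes are not reported here.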

Additional observations from a re-analysis of the deposited data

Results flagged for a closer look

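Cells that the marker filter had removed also carried Cnmd. At P7, 252 cells with an Epcam UMI had at least 10 Cnmd UMIs, 26.2% of the 961 Epcam-carrying cells. At E15 there were 45 and 47 such cells, 10.1% of 447 and 8.47% of 555, in libraries where no filtered cell reached 10 Cnmd UMIs. These values stand out because they lie outside the Cnmd-rich and comparison cells, and 45 of the 46 and 45 of the 47 cells with at least 10 Cnmd UMIs that the filter removed at E15 had a Sox10 UMI. They were not compared further with the Cnmd-rich cells than by the levels given for P7.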

How the results depend on the processing

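The number of Cnmd-rich cells lay between 406 and 619 under 5 Cnmd UMIs, a 10% mitochondrial limit, removal of the highest Scrublet scores and a rule of 0.1% of UMIs, and was 241 with at least 20 Cnmd UMIs. Genes at least 2-fold higher numbered 400 to 484 and lower ones 871 to 1108 under those choices and another comparison set. With a 50 CPM limit they were 222 and 305, against 429 and 1008 at 10 CPM, since fewer genes were measured. All 40 genes named by fold kept their direction and at least a 2-fold difference in the settings that changed the cells, but not their size. Folds moved by more than 1.5 times for 20 higher and 4 lower genes with the other comparison set, 1 and 10 with at least 5 Cnmd UMIs, 8 and 1 with at least 20, 0 and 7 with Scrublet removal, and 2 and 0 with the rule of 0.1%. The log2 difference of Col1a1 was -2.29 with at least 5 Cnmd UMIs, against -4.29. With age, genes called higher numbered 2546 to 3644 and lower 1542 to 2200 over DESeq2, other size factors, no filter on low counts, a test against a fold of 2, a 10% mitochondrial limit, Scrublet removal and sums without the Cnmd-rich cells. In those without the Cnmd-rich cells the log2 difference of Aif1l was -1.02 and that of Fabp7 -0.12. The smallest log2 difference among the 25 leading genes was 0.38 without E15 replicate 1 and 0.52 without E15 replicate 2; these fits have no residual degrees of freedom and give no test. No paired analysis was possible because P7 has 1 library, so the ages share fewer than 2 replicate numbers, and no E15 cell was Cnmd-rich. The number of filtered cells limits the E15 shares, and with 1 P7 library no value at P7 carries biological error.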
